A study of Arabidopsis thaliana with 6 samples.

Results

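A set of 82 genes was read in wild-type (WT) siliques of *Arabidopsis thaliana* and nearly silent in siliques of the *eml1 eml3* double mutant. The members were chosen from 37336 gene IDs by the measured values themselves. Each had a mean normalized read count of at least 20 over the 3 WT libraries. Its WT mean plus 1 was at least 12 times its mutant mean plus 1, and its highest mutant value was below its lowest WT value. The rule was met by 87 genes. Of these, 5 are not described further (EML3 itself, ESM1, SADHU5-2, SADHU3-1 and ACP5), which leaves the 82. The difference between the genotypes therefore describes how the genes were chosen. Where counts of members past a test's threshold or a member's p-value are printed, they are part of that description and not evidence.

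The study compared 3 libraries of plants carrying the alleles *eml1-2* and *eml3-4* with 3 WT libraries, all of poly(A) RNA from self-pollinated siliques collected 1 to 5 days after pollination. The labels give no accession for either genotype, so strain background and the mutations cannot be told apart for any gene below. Whether each library is a separate set of plants is not stated either, and p-values measure only a spread that may be technical. Siliques hold fruit wall, seed coat, endosperm and embryo, and fewer cells of a type cannot be told apart from less RNA per cell.

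The series title calls the EML proteins histone readers. Histone readers bind modified histones and can change whether a gene is transcribed. Genes that are read in one plant line and silent in another often belong to young tandem copies, pseudogenes or families of small secreted peptides, in which copies are gained and lost readily. Read counts alone do not show whether such a gene is missing, altered in sequence or present and not transcribed.

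In WT replicates 1 to 3 the normalized counts of EML3 (AT5G13020) were 2255, 2129 and 2718. The mutant values, in the same order, were 190, 173 and 198. EML1 (AT3G12140) had means of 1281 in WT and 1144 in the mutant, which leaves the *eml1* allele unchecked by counts over the gene. Reads counted over genes, recovered from the normalized counts, summed to 26771227 to 39246167 per library. Mutant replicate 3 stood apart in seed storage and oil body genes, whose summed count over 11 genes was 70147 there and 289 to 662 in the other libraries, with 0 of the 11 called. WT replicate 3 stood apart in pollen genes, as given below. Summed counts of the valve margin and carpel list were 6508 to 7073 in WT and 5195 to 6075 in the mutant, with SHP1 called lower. Endosperm sums were 2443 to 2811 and 2012 to 2470, and seed coat sums 77713 to 97112 and 93013 to 105643, with 0 genes called in either list.

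WT means of the 82 genes ran from 20.6 to 1994 with a median of 72.5. Mutant means ran from 0 to 47.7 with a median of 1.38. The ratio with 1 added to both means ran from 12.4 to 189, with a median of 29.7. In WT, 36 members had a mean of at least 100 and 16 of at least 500. In the mutant, 62 had a mean under 5 and 35 a mean under 1, and 20 had 0 reads in all 3 libraries. In limma, a linear model fitted to log2(count + 1) over 21751 genes, 64 of the 82 had a Benjamini-Hochberg adjusted p below 0.05, beside 3.1% of all tested genes called lower. edgeR's quasi-likelihood test on recovered reads called 72 (2.95% of its genes were called lower), and the authors' deposited table holds 80 (4.52%). All mutant libraries lay below all WT libraries in 12.8% of tested genes. These counts follow from the choice of members and support nothing.

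**Figure D1:**
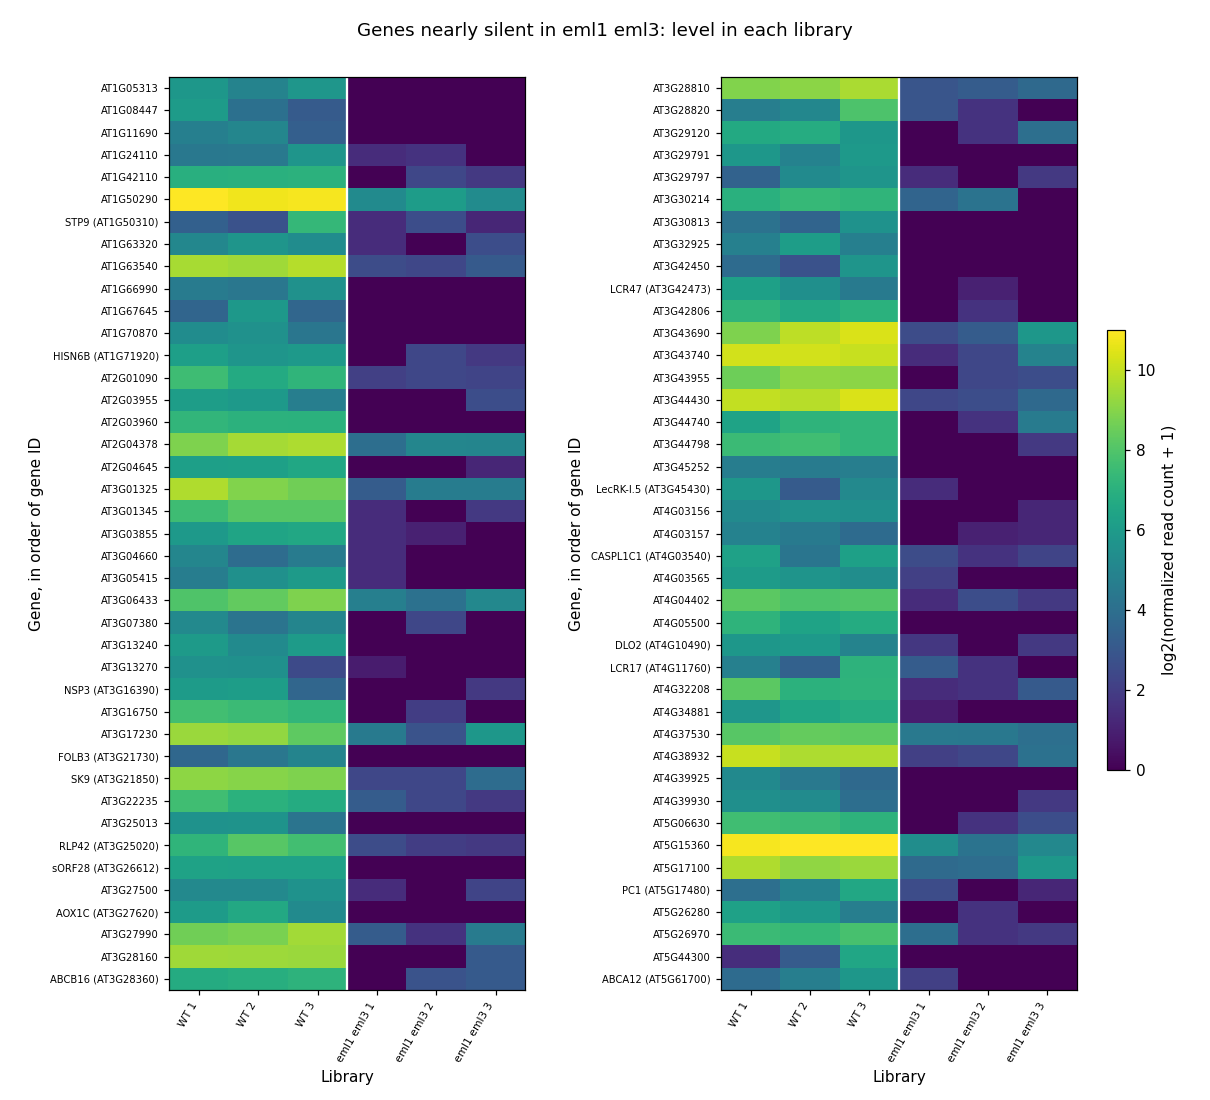
Heat map of log2(normalized read count + 1) for the 82 genes (rows, in order of gene ID) in the 3 WT and 3 *eml1 eml3* libraries (columns). In every row the mutant columns are darker than the WT columns, with 37 to 40 members at 0 reads in each mutant library, and AT1G50290 and AT5G15360 are the brightest rows in WT.

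Leaving out a library changed which genes met the rule. Without mutant replicate 3, 151 genes met it, 78 of them among the 82. Without any other one of the libraries 78 to 102 did. Of the 82, 57 met the rule whichever library was left out. Summed over the members, mutant replicate 3 held 47.8% of the normalized counts of the mutant libraries, and 31 of the 62 members with any mutant read were highest there. The part of that library's seed storage transcripts in these values was not tested.

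The 12 members with the highest WT means include 2 pseudogenes, a long noncoding RNA and several uncharacterized proteins. AT5G15360, an uncharacterized protein, stood at 1858, 2056 and 2068 in WT. Its mutant values were 40.6, 17.2 and 34.0, always in the order of replicates 1 to 3. AT1G50290, also uncharacterized, stood at 2302, 1721 and 1823 in WT and at 37.3, 66.8 and 39.1 in the mutant. These were the most strongly read members, 65.2-fold and 40.8-fold lower in the mutant, and per kilobase of transcript they also led, at 2617 and 2160 counts per kilobase in WT.

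AT3G43740, a leucine-rich repeat protein gene, stood at 1197, 1223 and 1063 in WT and at 1.62, 4.05 and 29.0 in the mutant. AT3G44430, uncharacterized, stood at 1029, 906 and 1339 in WT and at 4.06, 5.06 and 12.6 in the mutant. With 1 added to each mean their ratios were 92.6 and 133, and in both genes the highest mutant value came from replicate 3. The long noncoding RNA AT4G38932, which the reference notes as a natural antisense transcript, stood at 1065, 807 and 824 in WT and at 3.25, 4.05 and 16.4 in the mutant. The gene it is noted against, AT4G38930 of the UFD1 family, had means of 978 in WT and 888 in the mutant (limma adjusted p = 0.584). AT1G63540, a hydroxyproline-rich glycoprotein gene, stood at 746, 687 and 888 in WT and at 4.87, 4.05 and 7.56 in the mutant, 141-fold lower.

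The pseudogene AT3G28160 had the highest ratio of all. It stood at 681, 662 and 652 in WT, and its mutant values were 0, 0 and 7.56. Its 6 mutant reads against 2066 WT reads gave a depth-adjusted ratio of 335 (95% exact binomial interval 153 to 913, counting error only). Another pseudogene, AT3G43690, varied more between libraries, at 466, 955 and 1316 in WT and 4.87, 8.10 and 55.4 in the mutant. AT5G17100, a cystatin/monellin superfamily gene, stood at 829, 582 and 645 in WT and at 13.0, 14.2 and 55.4 in the mutant. AT2G04378, annotated as related to beta-galactosidase, stood at 467, 732 and 798 in WT and at 14.6, 32.4 and 31.5 in the mutant. The uncharacterized AT3G01325 had means of 562 ± 226 in WT and 18.4 ± 8.96 in the mutant (SD of each group, n = 3) and was highest of the WT libraries in replicate 1, at 818. AT3G28810 completes the 12 and is described with its neighbour below.

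For the 20 members with 0 mutant reads, the fold is a lower bound against a floor of 3 reads over the mutant group. AOX1C (AT3G27620), an alternative oxidase that lets mitochondrial electron flow bypass the cytochrome path, stood at 64.6, 98.0 and 37.2 in WT and was at least 68.0-fold lower. FOLB3 (AT3G21730), a dihydroneopterin aldolase of folate synthesis, stood at 11.7, 19.6 and 30.4 in WT and was at least 19.8-fold lower. The noncoding transcript sORF28 (AT3G26612) was even across WT at 78.8, 78.4 and 77.8 and at least 78.7-fold lower. AOX1C and FOLB3 varied 2-fold or more across WT, whereas sORF28 did not.

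Among transcribed pseudogenes with 0 mutant reads, AT2G03960 stood at 148, 134 and 130 in WT and was at least 139-fold lower, the largest bound of the 20. AT4G05500 stood at 140, 82.3 and 108 and was at least 112-fold lower. AT1G66990, AT1G67645 and AT3G30813 had WT means of 29.5, 26.3 and 25.3. AT1G67645 was read mainly in WT replicate 2, at 56.8 against 10.9 and 11.3 in WT replicates 1 and 3. The other pseudogenes at 0 were AT3G32925 and AT3G42450, with WT means of 40.4 and 23.7.

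Long noncoding RNAs at 0 in the mutant were AT1G05313, at 56.2, 29.4 and 54.1 in WT, and AT1G08447, at 63.7, 15.7 and 7.89. The protein-coding genes at 0 besides AOX1C and FOLB3 had low WT means of 22.4 to 54.9. They were AT1G11690 (similar to BRANCHLESS TRICHOME), AT1G70870 (polyketide cyclase-like), AT3G13240 (uncharacterized), AT3G25013 (synaptobrevin family, vesicle fusion), AT3G29791 (uncharacterized), AT3G45252 (related to ECA1 gametogenesis proteins), AT4G39925 (AT-hook family) and AT5G44300 (dormancy/auxin associated family). AT3G13240 was the highest of these, at 62.0, 37.2 and 65.4 in WT, and AT1G11690 the lowest, at 26.0, 32.3 and 9.02. AT3G45252 was the most even, at 24.3, 22.5 and 24.8.

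Pseudogenes, noncoding RNAs and single-exon genes made up much of the set. By the TAIR10.1 reference, 57 of 82 (69.5%) were protein-coding, against 96.5% of the tested genes the reference holds. Pseudogenes of either kind were 18 (22.0%), against 2.07%. Noncoding RNAs were 7 (8.54%), against 1.18%. Near-identical copies elsewhere in the reference were found for 18 (22.0%), against 3.50%. A single exon was counted for 35 (42.7%), against 17.6%, and the median transcript was 943 bases, against 1697. Gene models listed without exons were counted as having 1. Among protein-coding genes alone, 19 of 57 members (33.3%) had a single exon, against 15.8%, with median transcripts of 902 and 1703 bases. Overlap with another gene was annotated for 15.9%, against 29.0%. These shares were not tested. The median WT level of members was 80.9 counts per kilobase, against 266 for all tested genes. Genes chosen by the mirrored rule, nearly silent in WT, numbered 111, with 23.4% pseudogenes and 24.3% with a near-identical copy. Of them 7.21% were noncoding RNAs, 41.4% had a single exon and 16.2% overlapped another gene, so these shares are not particular to the members.

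Within the set, the WT means of the pseudogenes had a median of 99.9 and reached 912, against a median of 58.1 and a highest value of 1994 for the 57 protein-coding members. The 7 noncoding RNAs had a median of 80.0 and reached 899. Medians in the mutant were 0.608, 1.80 and 0.420 in that order.

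Enzymes and transporters made up a small named group. HISN6B (AT1G71920), a histidinol-phosphate aminotransferase of histidine synthesis, stood at 73.8, 52.9 and 59.8 in WT and at 0, 4.05 and 2.52 in the mutant. ABCB16 (AT3G28360), an ABC transporter of the P-glycoprotein class, stood at 107, 120 and 139 in WT and at 0, 6.08 and 7.56 in the mutant. ABCA12 (AT5G61700), from another class of ABC transporters, was lower in WT, at 13.4, 25.5 and 56.4, and at 3.25, 0 and 0 in the mutant. The ABC genes are from separate classes and lie on different chromosomes. AT2G01090, the hinge protein of the ubiquinol-cytochrome c reductase of mitochondria, stood at 190, 105 and 145 in WT and at 3.25, 4.05 and 3.78 in the mutant. DLO2 (AT4G10490), an oxygenase of the DMR6-like group, stood at 55.3, 59.8 and 29.3 in WT and at 2.43, 0 and 2.52 in the mutant. Every mutant value of AT2G01090 and DLO2 was below 5. NSP3 (AT3G16390), a nitrile specifier protein that directs glucosinolate breakdown toward nitriles, stood at 65.4, 68.6 and 11.3 in WT and at 0, 0 and 2.52 in the mutant. Its 2 mutant reads gave a ratio of 76.8 (95% counting interval 20.9 to 640).

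Receptor-like and protein turnover genes were also present. RLP42 (AT3G25020), a receptor-like protein that perceives fungal polygalacturonases, stood at 147, 284 and 202 in WT and at 4.87, 3.04 and 2.52 in the mutant. LecRK-I.5 (AT3G45430), an L-type lectin receptor kinase, stood at 55.3, 7.84 and 34.9 in WT and at 1.62, 0 and 0 in the mutant. WT replicate 2 was close to the mutant for LecRK-I.5, whereas RLP42 was far from the mutant in every WT library. SK9 (AT3G21850), a SKP1-like adaptor of ubiquitin ligases, stood at 566, 505 and 467 in WT and at 4.06, 4.05 and 13.9 in the mutant, 70.0-fold lower. AT3G04660, an F-box gene whose protein class binds SKP1-like adaptors, had 72 WT reads and 2 mutant reads, a ratio of 35.0 (95% counting interval 9.34 to 294). CASPL1C1 (AT4G03540), a membrane protein like those of the Casparian strip, stood at 78.0, 18.6 and 75.5 in WT and at 4.87, 2.03 and 3.78 in the mutant.

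Small secreted cysteine-rich peptides, many of which act between cells in reproduction and defence, gave 5 members. LCR47 (AT3G42473) stood at 74.6, 44.1 and 21.4 in WT and at 0, 1.01 and 0 in the mutant. LCR17 (AT4G11760) stood at 26.8, 9.80 and 138 in WT and at 8.11, 2.03 and 0 in the mutant. The defensin-like AT2G03955 stood at 69.6, 60.7 and 24.8 in WT and at 0, 0 and 5.04 in the mutant. WT replicate 3 was the lowest WT library for LCR47 and AT2G03955 and the highest for LCR17. The ECA1-related genes AT3G29797 and AT3G45252 had WT means of 33.0 and 23.9. Of 48 tested genes named for low-molecular-weight cysteine-rich peptides, 1 was called lower (LCR47) and 1 higher in limma. Of all tested genes 3.1% were called lower and 3.69% higher. The median log2 change of the 48 was -0.06, beside 0.00 for all tested genes. Of 25 ECA1-related genes 1 was called lower (AT3G45252) and 1 higher, with a median of -0.00.

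Other families with more than 1 member were the peroxidases and the cystatins. AT4G37530, of the peroxidase superfamily, stood at 282, 340 and 309 in WT and at 21.1, 20.3 and 15.1 in the mutant. AT1G24110, of the same superfamily, stood at 20.1, 20.6 and 51.9 in WT and at 1.62, 2.03 and 0 in the mutant. Of 41 tested peroxidase superfamily genes 3 were called lower, these members among them, and 3 higher, with a median log2 change of -0.13. The cystatin/monellin member AT4G03565 stood at 64.6, 50.9 and 40.6 in WT and at 3.25, 0 and 0 in the mutant. Of 13 tested cystatin/monellin genes 3 were called lower and 0 higher, with a median of -0.03. The group annotated like AT3G28810 and AT3G28820 had 10 tested genes, 3 of them called lower (both members and AT3G28980) and 0 higher. Its median was -0.11. Beside these counts, 3.1% of all tested genes were called lower and 3.69% higher. The family counts include the members, which had to be low, and the families were picked because members belong to them.

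In 12 members the WT libraries themselves spanned at least 5-fold, and in 7 of these WT replicate 3 was highest. STP9 (AT1G50310), a monosaccharide carrier known from pollen, stood at 9.22, 5.88 and 160 in WT and at 1.62, 5.06 and 1.26 in the mutant. PC1 (AT5G17480), a pollen calcium-binding protein, stood at 15.1, 28.4 and 97.0 in WT and at 4.87, 0 and 1.26 in the mutant. AT5G44300 stood at 1.68, 7.84 and 90.2 in WT with 0 mutant reads. In STP9 and AT5G44300 that library held 91.4% and 90.5% of the WT sum, so WT replicates 1 and 2 were near the mutant level.

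The other genes highest in WT replicate 3 were AT3G28820, LCR17, AT3G42450 and AT3G29797, with 80.8%, 79.0%, 72.9% and 52.3% of the WT sum there. WT replicate 3 was also highest of the WT libraries in 5 of 5 pollen marker genes. Their summed count was 5333, 5550 and 13701 across WT and 5121, 3058 and 3204 in the mutant libraries, with 1 gene (PPME1) called lower. No pollen marker was at 0 in any library. The part of pollen in these 7 genes was not tested. Without WT replicate 3, 14 of the 82 no longer met the rule, among them STP9, PC1, LCR17, AT3G28820, AT3G29797, AT3G42450 and AT5G44300. In the authors' deposited table, STP9 was the only member with a blank adjusted p-value. The remaining 5 uneven members were highest in WT replicate 1 (AT1G08447, AT3G13270 and LecRK-I.5) or WT replicate 2 (AT1G67645 and NSP3).

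**Figure D2:**
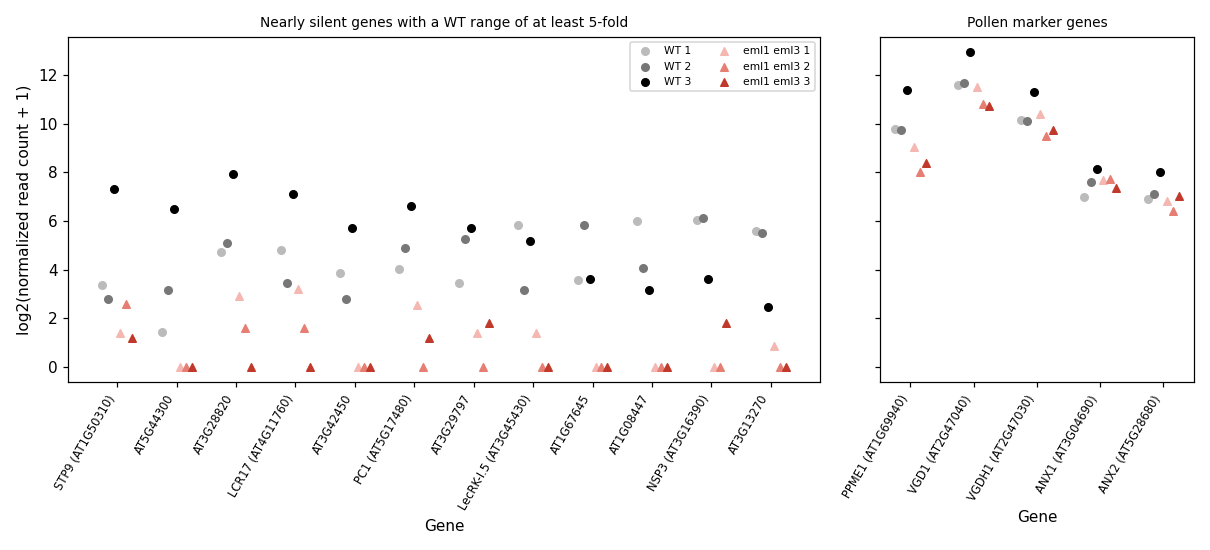
Log2(normalized read count + 1) in each library for the 12 members whose WT libraries span at least 5-fold (left, ordered by the share of WT replicate 3) and for 5 pollen marker genes (right). Circles are WT and triangles *eml1 eml3*. WT replicate 3, in black, is the highest WT point in the 7 leftmost members and in all 5 pollen markers, whereas the pollen markers of the mutant stay well above 0.

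By gene ID, 42 of the 82 members (51.2%) lie on chromosome 3, which holds 19.9% of the tested genes. Chromosomes 1, 2, 4 and 5 held 13, 5, 14 and 8. Per 1000 tested genes that is 9.68 members on chromosome 3, 4.27 on chromosome 4 and 1.51 to 2.29 on chromosomes 1, 2 and 5. Among the 57 members that met the rule whichever library was left out, 52.6% lay on chromosome 3. Under every other version of the rule tried, 35.2% to 55.3% did. Of the 18 pseudogenes 13 were on chromosome 3, as were 26 of the 57 protein-coding members and 3 of the 7 noncoding RNAs.

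Along chromosome 3 the members were uneven. The tested genes of each chromosome were divided into 10 segments of near equal gene number by gene ID. The sixth and seventh segments of chromosome 3, the latter spanning its centromere, held 13 and 14 members, 32.9% of all 82 from 3.99% of the tested genes. The last 3 segments held 0 members among 1300 tested genes. The last member on chromosome 3 was LecRK-I.5 (AT3G45430), with 1517 tested genes after it. EML1 lies in the third segment, which held 2 members, the nearest with 106 tested genes between. On chromosome 2, all 5 members lay in the first segment. On chromosome 4, 7 lay in the first 2 segments and 4 in the last. On chromosome 5, the segment with EML3 held 3 members, the nearest with 212 tested genes between.

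Genes that were not members were called in both directions in the middle of chromosome 3. In its sixth and seventh segments, 63 of 841 other tested genes (7.49%) were called lower and 42 (4.99%) higher. Of all tested genes, members included, 3.1% and 3.69% were. By segment, the share of other genes called lower was highest in the sixth and seventh of chromosome 3, at 8.55% and 6.43%. The share called higher was not. It was highest in the first 2 segments of chromosome 4, at 11.7% and 7.72%. In the last 3 segments of chromosome 3, 38 of 1300 (2.92%) were called lower. Genes nearly silent in WT lay elsewhere in part. They numbered 27 on chromosome 3, with 11 in the seventh segment and 2 in the sixth, 25 in the first 2 segments of chromosome 4 and 19 in the fifth segment of chromosome 5.

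**Figure D3:**
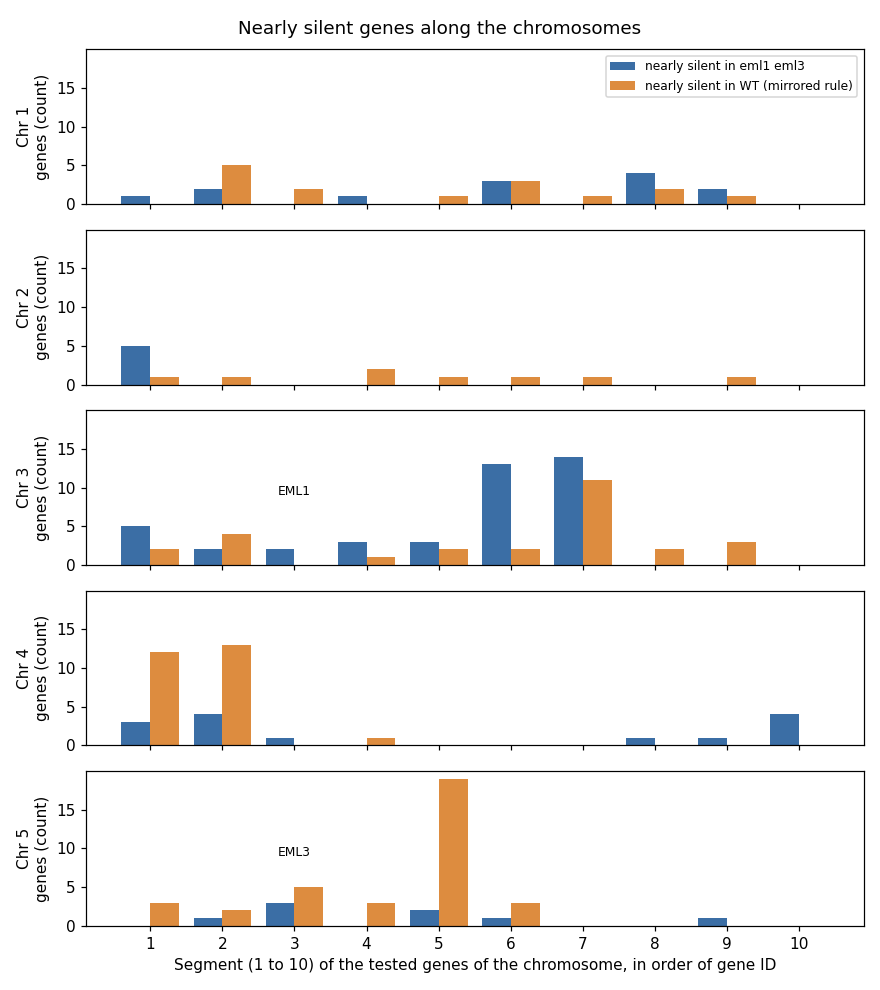
Number of genes nearly silent in *eml1 eml3* (blue) and, by the mirrored rule, in WT (orange) in each segment of the tested genes of chromosomes 1 to 5, in order of gene ID. The blue bars reach 13 and 14 in the sixth and seventh segments of chromosome 3 and are absent from its last 3 segments, and the tallest orange bar, 19, is in the fifth segment of chromosome 5.

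Members next to each other formed 12 runs, here 2 or more members with at most 5 other tested genes between them. All 12 were pairs, 24 members in all, and 7 of the pairs were on chromosome 3. In 8 pairs no tested gene lay between. AT3G28810 and AT3G28820, annotated as similar to a Mediator subunit and with DUF1216, a domain of unknown function, were a tandem pair. They had 95.2% identity over 1334 bases, so reads could be split between them. AT3G28810 stood at 481, 543 and 779 in WT and at 6.49, 8.10 and 12.6 in the mutant. AT3G28820 stood at 25.2, 33.3 and 246 in WT and at 6.49, 2.03 and 0 in the mutant. WT replicate 3 was the highest WT library for each, but only AT3G28820 was uneven by the 5-fold mark. The flanking AT3G28790 and AT3G28830, also annotated with DUF1216, were highest there too. AT3G28790 stood at 1122, 1258 and 5523 in WT and AT3G28830 at 1702, 1821 and 5289.

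RLP42 lay beside the synaptobrevin gene AT3G25013, which stood at 47.8, 49.0 and 18.0 in WT with 0 mutant reads. AT2G03955 lay beside the pseudogene AT2G03960. AT3G13240, at 0 in the mutant, lay beside the pseudogene AT3G13270, at 47.0, 45.1 and 4.51 in WT with 1 mutant read in all. AT3G29791, at 55.3, 28.4 and 58.6 in WT, lay beside the ECA1-related AT3G29797, at 10.1, 37.2 and 51.9. LCR47 lay beside the pseudogene AT3G42450, at 13.4, 5.88 and 51.9 in WT. In these pairs both genes were near 0 in every mutant library, with AT2G03955 reaching 5.04 at most.

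On chromosome 4, AT4G03156, similar to small GTPases, stood at 36.9, 47.0 and 44.0 in WT and lay beside the uncharacterized AT4G03157, at 28.5, 21.6 and 13.5. AT4G39925, at 36.1, 20.6 and 12.4 in WT with 0 mutant reads, lay beside AT4G39930, at 43.6, 38.2 and 14.7. In the pair at the end of chromosome 4 WT replicate 3 was lowest for both genes.

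The 4 looser pairs were AT1G50290 with STP9, AT3G43690 with AT3G43740, CASPL1C1 with AT4G03565, and AT3G44740 with the noncoding RNA AT3G44798. AT3G44740, annotated with class II aminoacyl-tRNA synthetases, stood at 81.3, 141 and 151 in WT and at 0, 2.03 and 22.7 in the mutant, and overlaps HDA3 on the other strand. Its adjusted p-value in the authors' deposited table was 0.0847, the highest of the members with one. AT3G44798 stood at 179, 196 and 152 in WT and at 0, 0 and 2.52 in the mutant. Allowing 10 genes between members gave 37 members in 17 runs.

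The values of the flanking genes did not choose the members, but neighbours that were members themselves were passed over. Neighbours low enough to meet the rule are therefore missing from the counts and the median below. The nearest tested gene on each side that is not itself a member gave 147 genes. In limma 8 of them (5.44%) were called lower and 13 (8.84%) higher, beside 3.1% and 3.69% of all tested genes. With a change of at least 2 on the log2 scale, 6 were called lower and 3 higher, 4.08% and 2.04%, beside 0.759% and 0.708%. The median log2 change of the flanking genes was -0.03, against 0.00 for all tested genes. In all 21 of the 147 were called, beside 6.79% of all tested genes. On chromosome 3, 13 of 74 were called and elsewhere 8 of 73. Without mutant replicate 3, 15 of 142 flanking genes were called lower and 14 higher, but calls rose over all genes too. They were 1456 lower and 1157 higher of 21621 tested genes. Without mutant replicate 1, 7 of 146 flanking genes were called higher, beside 332 of 21779 tested genes. Without mutant replicate 2, 7 of 147 were, beside 319 of 21786.

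Several of the 6 strongly lower flanking genes are relatives of the member beside them. NSP1 (AT3G16400), another nitrile specifier, stood at 319, 351 and 413 in WT and fell to 60.9, 60.8 and 84.4 beside NSP3 (log2 change -2.39 ± 0.26 SE, limma adjusted p = 0.000512). PCC1 (AT3G22231), a circadian and pathogen-responsive gene, stood at 559, 406 and 566 and fell to 73.0, 87.1 and 166 beside AT3G22235 (limma adjusted p = 0.00199). It is 99.4% identical to AT3G22235 over 344 bases, so their reads could be split. AT5G17090 is a cystatin/monellin gene like its neighbour AT5G17100. It stood at 1498, 1412 and 1798 in WT and fell to 225, 167 and 368 (limma adjusted p = 0.000200). In NSP1, PCC1 and AT5G17090 the mutant kept a level well above 0. Their WT and mutant libraries did not overlap, but these genes were named for a strong called fall, so this adds no support. All mutant libraries lay below all WT libraries in 12.8% of tested genes.

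SDH3-2 (AT4G32210), a membrane anchor subunit of succinate dehydrogenase, stood at 215, 410 and 398 in WT and fell to 36.5, 31.4 and 56.7 (limma adjusted p = 0.000946). Its neighbour, the member AT4G32208, resembles heat shock protein 70 and stood at 297, 133 and 140 in WT and at 1.62, 2.03 and 7.56 in the mutant. Both have near-identical copies that are themselves neighbours on chromosome 5. SDH3-1 (AT5G09600), 99.9% identical to SDH3-2 over 1090 bases, had means of 1075 and 1403 in WT and mutant (limma adjusted p = 0.102). MTHSC70-2 (AT5G09590), 99.0% identical to AT4G32208 over 602 bases, had means of 2572 and 2761 (limma adjusted p = 0.692). Summed, the means of AT4G32208 and MTHSC70-2 were 2762 in WT and 2765 in the mutant. MTHSC70-2 makes up most of that sum, and its SD was 79.9 in WT and 304 in the mutant. The WT mean of AT4G32208 was 190, so the sum cannot show where its reads went. Reads could be split between such copies, which was not tested.

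AT3G27610, a nucleotidylyl transferase gene beside AOX1C, stood at 258, 238 and 250 in WT and fell to 42.2, 53.7 and 55.4 (limma adjusted p = 0.00104). The pseudogene AT3G29776, beside AT3G29791, stood at 33.5, 50.9 and 44.0 in WT and at 0, 0 and 10.1 in the mutant (limma adjusted p = 0.0438). Its call was lost with edgeR and its filter, with the replicate number as a block, with a pseudocount of 0.5 and on leaving out WT replicate 1, 2 or 3 or mutant replicate 1 or 2 (adjusted p 0.00316 to 0.178 over the alternatives).

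The 3 strongly higher flanking genes met the mirrored rule. AT3G45440, a lectin kinase gene next to LecRK-I.5, stood at 1.68, 13.7 and 18.0 in WT and rose to 291, 326 and 227 (log2 change 4.94 ± 0.68 SE, limma adjusted p = 0.00201). LecRK-I.5 was chosen for being lower in the mutant and did not pass in limma (adjusted p = 0.0594), so only the change of AT3G45440 was tested apart from the choice. The pseudogene AT4G04410, next to the phosphorelay mediator gene AT4G04402, stood at 18.4, 3.92 and 10.1 in WT and rose to 198, 290 and 179 (limma adjusted p = 0.00110). AT4G04402 itself stood at 301, 240 and 260 in WT and at 1.62, 5.06 and 2.52 in the mutant. AT3G30200, a transposase-like gene next to the pseudogene AT3G30214, had 0 WT reads and 33.3, 58.7 and 47.9 in the mutant (limma adjusted p = 0.00860). It has near-identical copies and lost its call without mutant replicate 1 or 2 (adjusted p 0.0579 and 0.105).

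**Figure D4:**
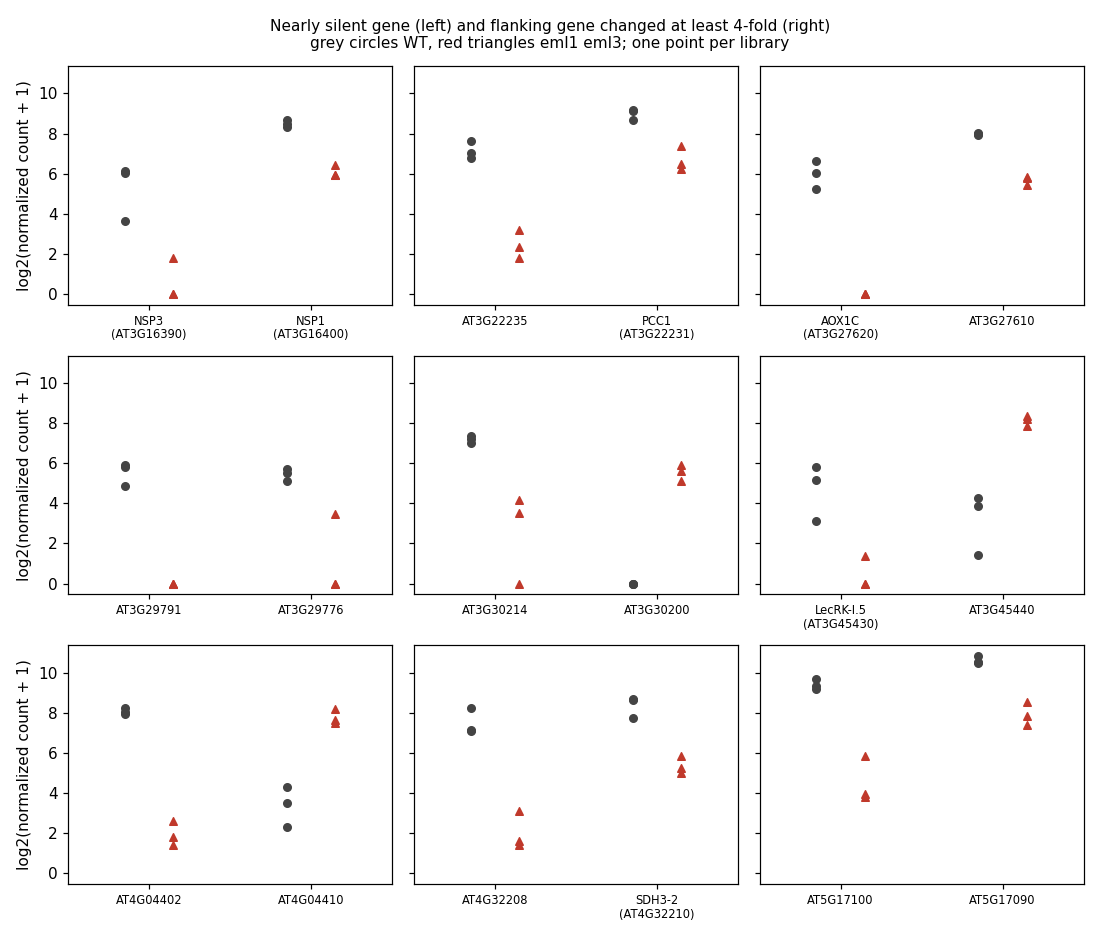
Log2(normalized count + 1) per library for the 9 flanking genes called with a change of at least 2 on the log2 scale (right in each panel) and the member beside each (left). In 6 panels both genes are lower in *eml1 eml3* (triangles) than in WT (circles), and in the panels of AT3G30200, AT3G45440 and AT4G04410 the flanking gene is higher.

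The closest copy is here the one with the longest alignment, which need not be the most identical. Of the 18 members with a near-identical copy, 16 had a closest copy that is not a member. The plot of members and copies gives both means for each pair. HISN6B is 99.5% identical over 1105 bases to HPA1 (AT5G10330), the other histidinol-phosphate aminotransferase gene, which had means of 865 in WT and 740 in the mutant (limma adjusted p = 0.497). RLP42 is 96.2% identical over 2005 bases to AT3G24929, with means of 103 and 45.8 (limma adjusted p = 0.0843). AT1G66990 resembles SNC4 (AT1G66980), with means of 899 and 921 (limma adjusted p = 0.894). AT1G63320, a pentatricopeptide repeat gene, resembles RPF3 (AT1G62930), with means of 169 and 242 (limma adjusted p = 0.265). Summed means of member and copy in WT and mutant were 928 and 921 for AT1G66990 and 211 and 245 for AT1G63320. For HISN6B they were 927 and 742, and for RLP42 313 and 49.3. The SDs in WT and mutant were 199 and 89.7 for SNC4, 38.1 and 36.0 for RPF3, and 109 and 170 for HPA1. The WT means of the members beside them were only 29.5, 41.4 and 62.1. The sums of AT1G66990, AT1G63320 and HISN6B with their copies therefore cannot show where the reads of the member in each pair went. Reads could be split within these pairs, which was not tested.

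Of the closest copies that are not members, 3 were called. The member AT3G06433, a pseudogene of the MtN3 family, stood at 249, 325 and 469 in WT and at 26.0, 16.2 and 34.0 in the mutant. Its closest copy AT5G14840 stood at 161, 147 and 216 in WT and rose to 946, 970 and 1536 (limma adjusted p = 0.000103), a difference of means 303% of the size of the member's, in the opposite direction. Another copy, AT3G06437, rose from a mean of 1.68 to 74.0 (limma adjusted p = 0.0187). Its alignment to AT3G06433 is shorter but more identical, 98.1% over 776 bases against 96.8% over 832 for AT5G14840. The noncoding member AT3G27990 stood at 396, 435 and 717 in WT and at 8.11, 2.03 and 22.7 in the mutant, and its copy AT4G03930 fell from a mean of 5181 to 2275 (limma adjusted p = 0.00332). Another of its copies, AT1G11590, rose from a mean of 109 to 861 (limma adjusted p = 1.16e-05). PCC1, described above, was the third. The closest copies of AT1G42110, AT3G05415, AT3G29120, AT3G42806, AT3G07380 and AT1G67645 are AT2G15940, AT3G44096, AT1G62766, AT5G34851, AT5G48190 and AT1G67610. Their means were below 20 in both genotypes, and AT2G15940 and AT5G34851, the tested ones, were not called (limma adjusted p = 0.930 and 0.999). UPL4, a ubiquitin ligase gene that shares 155 bases with sORF28, had means of 1666 and 1339 (limma adjusted p = 0.402). AT3G28160, with a mean of 665 in WT, has a copy, AT3G29798, with 0 reads in every library.

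**Figure D5:**
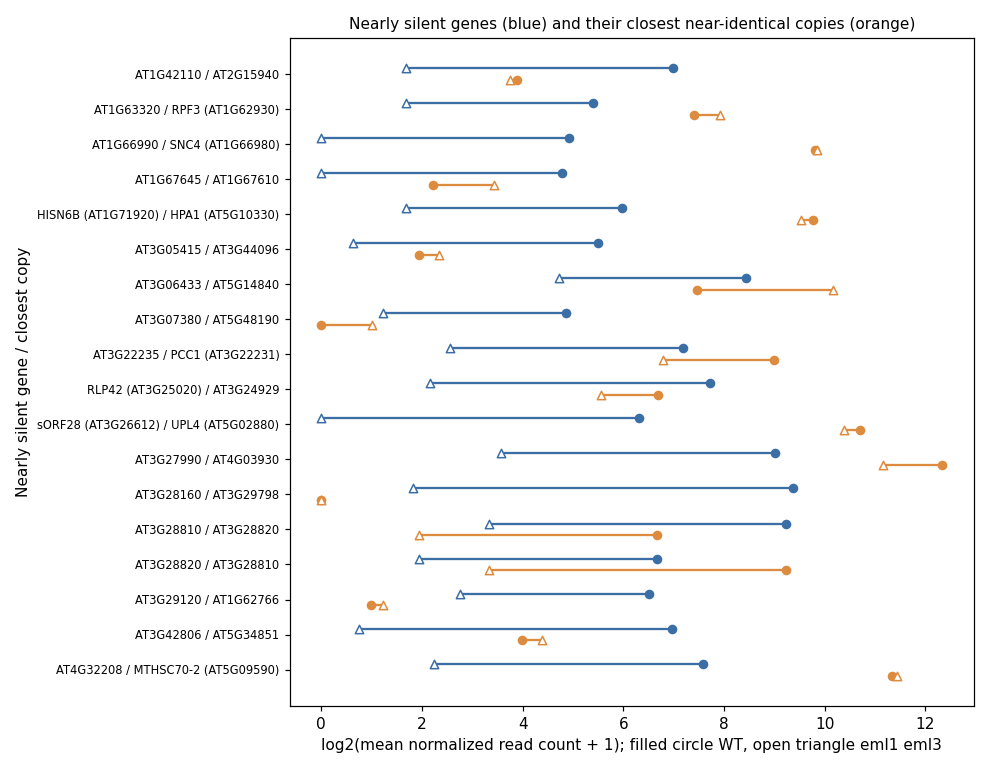
Mean log2 levels of the 18 members with a near-identical copy (blue) and of the closest copy (orange), as log2(mean normalized read count + 1), with a filled circle for WT and an open triangle for *eml1 eml3*. Most orange pairs are short beside the blue ones. AT5G14840 moves the opposite way to AT3G06433.

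The remaining members are given by range. They include AT3G03855, a pseudogene of a disease resistance gene, at 60.4, 84.2 and 97.0 in WT, the pectin methylesterase inhibitor-like AT3G17230 at 650, 594 and 308, and the extensin-like AT5G06630 at 198, 178 and 138. In the mutant these stood at no more than 1.62, 55.4 and 5.04. Others were the uncharacterized AT3G01345 and AT3G16750, with WT means of 251 and 178, and the pseudogene AT3G43955, at 382, 585 and 539 in WT and 0, 4.05 and 5.04 in the mutant. AT3G43960, a cysteine proteinase gene flanking AT3G43955, fell from a mean of 1597 to 516 (limma adjusted p = 0.000367). AT3G22235, a cysteine-rich transmembrane module gene, stood at 197, 129 and 108 in WT and at 8.11, 4.05 and 2.52 in the mutant. AT5G26970, uncharacterized, stood at 178, 164 and 224 in WT and at 14.6, 2.03 and 2.52 in the mutant, and both genes beside it were called higher. These were AT5G26960, a kelch repeat gene (583 to 1358, limma adjusted p = 0.00731), and SYP41, a syntaxin of vesicle fusion (91.2 to 273, limma adjusted p = 0.00937). AT3G27500 (C1 domain), AT5G26280 (TRAF-like), AT1G63320 and AT3G07380 (glycosyltransferase family) had WT means of 28.1 to 52.9 and mutant means of 0.675 to 2.22. The pseudogenes AT1G42110, AT3G05415, AT3G29120, AT3G30214 and AT3G42806 had WT means of 44.2 to 146 and mutant means of 0.541 to 9.26. The lncRNA AT2G04645 had 245 WT reads and 1 mutant read, a ratio of 238 (95% counting interval 42.3 to 9443), and AT4G34881, which overlaps XDH1 on the other strand, 255 and 1, a ratio of 248 (44.1 to 9827).

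Members nearest to the limit of 12 were AT3G07380, AT4G03157 and CASPL1C1, with ratios of 12.4, 12.6 and 12.8. The genes nearest below it were AT5G18840, AT3G26130 and AT3G19515, with ratios of 12.0, 12.0 and 11.7. AT5G18840 and AT3G19515 were strongly read in WT, at means of 1793 and 1260, and stood at 149 and 107 in the mutant. At the limit on the WT mean, FOLB3 was just inside at 20.6 and AT2G13547 just outside at 19.9.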

How the data were processed

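The members, families and lists were chosen with earlier results of these data known. Values analysed are the authors' deposited signal, that is, read counts of genes after division by DESeq2 size factors, per the file headers. The submitters' processing notes name STAR 2.5.2a, Subread, featureCounts, Trim Galore, DESeq2 and SAMtools without roles. No source used here gives a genome build, an annotation, the strandedness of counting or the handling of reads with several matches, and coordinates and sequences are left out for that reason. Values in each library were whole multiples of 1 step (100% of values, tolerance 1e-06), which gave back whole reads. Even counts were in excess at 1 to 20 reads (69.3% to 73.9% of genes), so intervals and floors, which cover counting error only, are too narrow. The authors' deposited table holds log2 fold changes, a score (the Wald statistic) and p-values, per the file headers.

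Genes averaging at least 10 were tested with limma 3.58.1 (R 4.3.3; variance trend, pseudocount 1, genotype only, two-sided, Benjamini-Hochberg, threshold 0.05). On the log2(value + 1) scale changes of low genes are understated. Kinds, overlaps and names came from TAIR10.1, which held 37051 of 37336 IDs. Near-identical means at least 95% identity over at least 150 bases of transcript (BLAST 2.17.0), leaving out overlapping genes. Closest copies were ranked by aligned length and then by identity. Named genes were the 12 highest in WT, those in runs, with 0 mutant reads, in shared families or near the limits, flanking genes called at 4-fold, and closest copies. Other names, the families and the 5-fold mark for uneven WT values were chosen after values were seen. The fit was also run on simulated counts without near-silent groups or an outlying library, so that run does not cover the cases described here. Alternatives included edgeR 4.0.16 and DESeq2 1.42.0 on recovered reads.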

Additional observations from a re-analysis of the deposited data

How the results depend on the processing

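Calls on the recovered reads by edgeR with its filter numbered 637 lower and 766 higher genes, beside 674 and 802 in limma. DESeq2 called 1108 lower and 1257 higher. Rescaling to one total gave 863 lower and 615 higher. Leaving out 1 library gave 249 to 1456 lower and 319 to 1157 higher genes, 37 to 77 members past the threshold in place of 64, and 6 to 15 lower and 7 to 14 higher flanking genes in place of 8 and 13. The largest counts of lower genes came without mutant replicate 3. Whether the replicate numbers pair the libraries is not known. Same-numbered deviations correlated at -0.08, -0.00 and -0.17, but deviations from means of only 3 libraries depend on each other and cannot decide it. Recovered reads fell with the replicate number in both genotypes. They were 38196040, 31503946 and 27046107 in WT and 39246167, 31569842 and 26771227 in the mutant. With the replicate block edgeR called 438 lower genes, and limma 537 lower genes and 49 members. A minimum mean of 50 left 35 members past the threshold, because fewer were tested. EdgeR without a filter called 13 of 147 flanking genes lower, beside 988 of all 29685 genes in that test. The rule gave 50 members with a WT mean of at least 50, 38 with 5 added to both means, and 78 to 151 without 1 library. Without both replicates 3, an alternative chosen after seeing the data, it gave 159, with 1591 lower and 1400 higher genes and 14 lower flanking genes. Runs held 37 members with at most 10 genes between, and 36 members had at most 3 mutant reads in place of 20 with 0. Where no cause is named, the cause was not tested. Few mutant reads limit the ratios of the 36 members with at most 3.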
